A study of Mus musculus with 36 samples.

Results

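MHC class II molecules display peptides from endosomes to CD4+ T cells, and 7 genes of this route were followed: *H2-Aa*, *H2-Ab1*, *H2-Eb1*, *H2-DMa*, *H2-DMb1*, *Cd74* and *Ciita*. They were chosen by name, and all 7 were found among the 24781 genes of the count table. The alpha and beta chains, encoded here by *H2-Aa*, *H2-Ab1* and *H2-Eb1*, assemble with the invariant chain (*Cd74*), which fills the groove until it is cut away in the endosome, and the DM molecule (*H2-DMa* with *H2-DMb1*) then exchanges its last fragment for peptide. *Ciita* is the coactivator that switches this gene group on. Macrophages carry the group and raise it on exposure to interferon-γ, whereas mouse T cells are generally regarded as lacking it.

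The genes were measured in 36 libraries of 100 sorted cells from MC38 tumours, a mouse colon adenocarcinoma line inoculated intradermally, on day 7. The cells were tumour-associated macrophages (TAMs; CD45+CD11b+F4/80 high) or CD8+ T cells (CD45+TCRβ+CD8+), with 6 libraries per cell type in each of 3 groups of mice. WT mice were C57BL/6J or C57BL/6N, and which of these gave the libraries was not stated. *muMt*-/- mice, of the C57BL/6J strain, lack mature B cells through disruption of *Ighm* in the germ line, so that every tissue carries the mutation and no B cell function can be singled out. The last group was *muMt*-/- mice with a slow-release GABA pellet placed under the skin on the day before inoculation. The labels name no treatment for the first and second groups, which the study describes as having received placebo pellets. For its mice as a whole the study states an age of a few months and both sexes, and the age of each mouse was not given in the sources used here. Each library came from 1 mouse, but whether TAMs and CD8+ T cells of the same number came from the same mouse was not stated.

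Each transcript was tagged at its poly(A) end with a molecular barcode before amplification, so that the table counts distinct molecules and a long transcript gives no more counts than a short one. Depth differed between cell types and groups. For TAMs the lowest, median and highest number of molecules in a library was 206394, 242756 and 304100 (WT), 100254, 149960 and 253608 (*muMt*-/-) and 151856, 192775 and 262606 (*muMt*-/- with GABA). For CD8+ T cells it was 22896, 42065.5 and 76898, then 51064, 67121.5 and 77839, then 65356, 80283 and 98015. Normalized molecules are counts divided by size factors within a cell type, and counts scaled to the library total (CPM) are used wherever the cell types are compared. Fewer cells of a type and less RNA per cell cannot be told apart in such pools.

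*H2-DMa*, *H2-DMb1*, *H2-Ab1*, *H2-Aa* and *H2-Eb1* lie within chromosome 17, from 34119693 to 34316674 in GRCm38.p6, *Cd74* lies on chromosome 18 and *Ciita* on chromosome 16.

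In TAMs, the 7 genes together took a median of 0.996% of all molecules in WT mice (0.642% to 1.48%), 1.21% in *muMt*-/- mice (0.858% to 1.54%) and 1.14% in GABA-treated mice (0.427% to 1.53%). The 3 groups overlapped, and the lowest of all 18 libraries was 1 of the GABA-treated group. Over all TAM libraries, *Cd74* gave 39.0% of the 40446 molecules of the gene group (95% Wilson interval 38.6 to 39.5), which covers counting error only. *H2-Aa* followed with 21.2%, *H2-Ab1* with 17.3% and *H2-Eb1* with 13.8%. The DM genes stood lower, *H2-DMa* at 4.35% and *H2-DMb1* at 3.88%, and *Ciita*, a regulator rather than a structural part, at 0.485%. *H2-DMb1* has a near-identical neighbour, *H2-DMb2*, and the split of molecules between them is uncertain.

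Among the chain genes in TAMs, *H2-Aa* stood at 234, 392 and 616 normalized molecules in WT mice (lowest, median and highest), at 305, 445 and 624.7 in *muMt*-/- mice and at 147, 489 and 668 in GABA-treated mice. The ranges lay over each other, and the widest was that of the GABA-treated group. *H2-Ab1* had medians of 325, 373 and 384 in the same order of groups, and *H2-Eb1* of 250, 331 and 282. C57BL/6 mice do not express the partner of the *H2-Eb1* chain, so that its transcript is made without I-E molecules reaching the surface. For B cell loss, the log2 fold change was 0.15 ± 0.23 (SE) for *H2-Aa*, 0.18 ± 0.23 for *H2-Ab1* and 0.30 ± 0.21 for *H2-Eb1*, and none passed edgeR's test (adjusted p 0.837, 0.801 and 0.547).

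*Cd74* was at 483, 697 and 1062 normalized molecules in WT TAMs, at 676, 1091 and 1201 in *muMt*-/- TAMs and at 420, 780 and 1023 with GABA. The median was highest in *muMt*-/- mice, with overlap between all groups. Its log2 fold change for B cell loss was 0.44 ± 0.19 (edgeR adjusted p = 0.262). *muMt*-/- TAMs with GABA against those without gave -0.36 ± 0.19 (edgeR adjusted p = 0.624), and these comparisons share the *muMt*-/- libraries. GABA-treated against WT TAMs gave 0.075 ± 0.19 (edgeR adjusted p = 0.967).

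*H2-DMa*, the alpha chain of DM, was at medians of 93.0, 93.7 and 100.4 normalized molecules in WT, *muMt*-/- and GABA-treated TAMs, and *H2-DMb1*, its beta chain, at 81.4, 74.8 and 83.2. Single libraries ran from 19.9 to 142.8 for *H2-DMa* and from 41.2 to 106 for *H2-DMb1*, so that the groups overlapped. *Ciita* stood at medians of 8.41, 10.1 and 10.6, with single libraries from 5.97 to 15.0. With B cell loss, log2 fold changes were -0.066 ± 0.25 for *H2-DMa*, -0.15 ± 0.18 for *H2-DMb1* and 0.29 ± 0.27 for *Ciita* (edgeR adjusted p 0.947, 0.772 and 0.683).

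**Figure D1:**
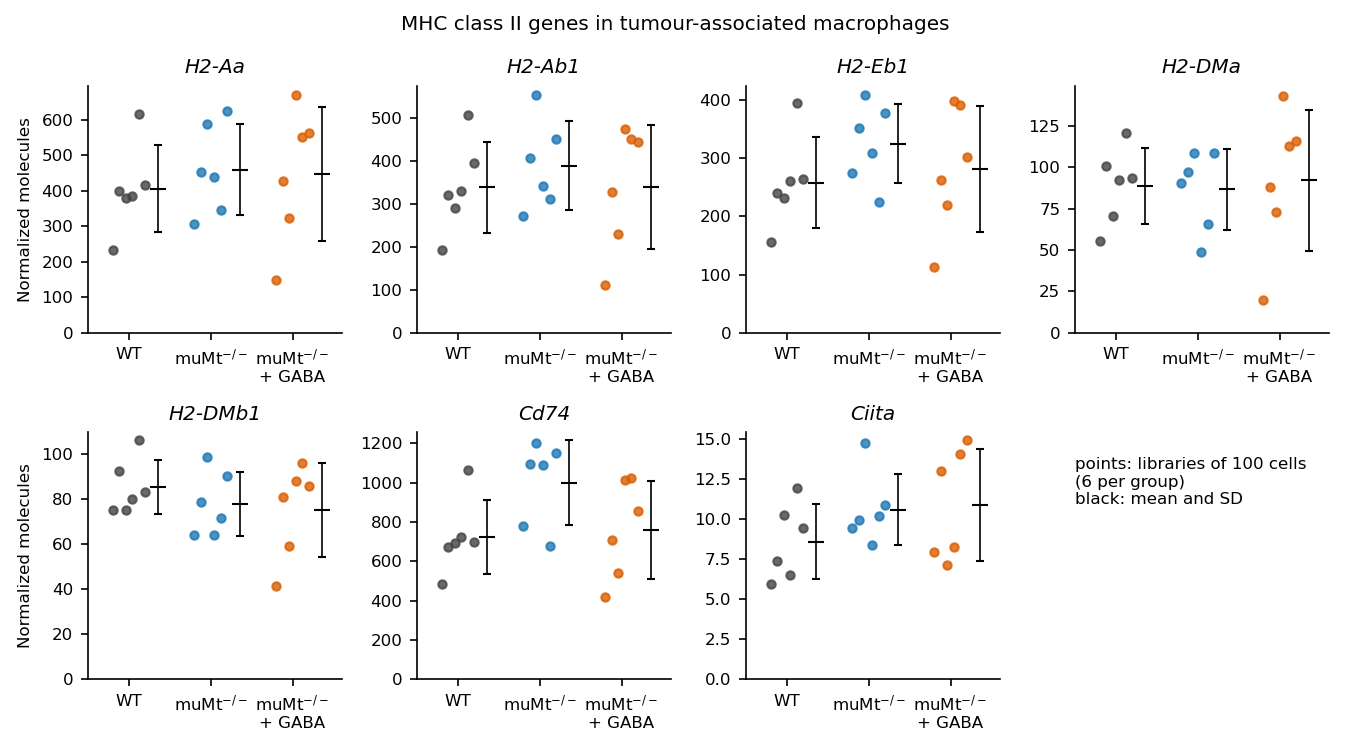
Normalized molecules of the 7 genes in TAMs. Each point is 1 library of 100 cells, black marks give the mean and SD of the 6 libraries, and the groups overlap for every gene (*Cd74* medians 697, 1091 and 780).

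For B cell loss in TAMs, 0 of 7 genes passed edgeR, where 2.05% of the 9469 genes tested did. At an unadjusted p under 0.05 it was 1 of 7, beside 14.9% of all genes. DESeq2 called 0 of 7, and 282 of the 9469 genes tested. The median log2 fold change was 0.18 over the 7 genes and -0.047 over all genes. For the GABA pellet in *muMt*-/- TAMs, 0 of 7 passed in edgeR, beside 0.0211% of all genes. In edgeR 0 of 7 had an unadjusted p under 0.05, beside 8.46%. DESeq2 called 0 of 7, and 62 of the 9469 genes tested. The medians were -0.022 for the gene group and 0.059 for all genes. GABA-treated against WT TAMs likewise gave 0 of 7 by edgeR, beside 0.0739% of all genes. At an unadjusted p under 0.05 in edgeR it was 0 of 7, beside 7.02%. DESeq2 called 0 of 7, and 13 of the 9469 genes tested. Here the medians were 0.075 for the gene group and 0.018 for all genes. A p that misses the threshold does not show that the levels were equal.

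Within groups, the genes varied together from mouse to mouse. After group means were subtracted, Pearson's r between pairs of genes ran from 0.77 to 0.98 for the 15 pairs without *Ciita* (median 0.92) over the 18 TAM libraries, and from 0.49 to 0.66 for the 6 pairs with *Ciita*. This is a description of libraries that share their depth and size factors, without a test.

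In CD8+ T cell libraries the same genes were found at lower levels. They took a median of 0.030% of all molecules in WT mice (0% to 0.280%), 0.233% in *muMt*-/- mice (0.127% to 0.789%) and 0.217% in GABA-treated mice (0.0130% to 0.422%). WT replicate 5 held 145 of the 204 molecules of the WT group, *muMt*-/- replicate 1 held the most of its group (501), and GABA-treated replicates 4 and 5 held 32 and 9. In *muMt*-/- replicate 1 and GABA-treated replicate 1 the 12 macrophage markers described further on outnumbered the 10 T cell markers, with 248 against 117 and 235 against 224 molecules, although the sort was for T cells. The libraries were therefore uneven before any comparison.

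*Cd74* in CD8+ T cells was at 0, 6.16 and 62.9 normalized molecules in WT mice, at 32.7, 46.0 and 225.5 in *muMt*-/- mice and at 1.56, 60.3 and 99.1 in GABA-treated mice. In WT mice 5 of 6 libraries lay under the lowest *muMt*-/- library, and the exception was replicate 5. The log2 fold change for B cell loss was 2.29 ± 0.62 (edgeR adjusted p = 0.318). Without WT replicate 5 it was 3.75 (edgeR adjusted p = 0.0096), and without *muMt*-/- replicate 1 and GABA-treated replicate 1, left out after seeing the data, 1.61 (edgeR adjusted p = 0.762). Over all alternatives run it lay between 1.61 and 3.75, with edgeR and DESeq2 adjusted p from 8.7e-16 to 0.9997. The lowest came from a fit with no filter on low genes, which gave nearly the same log2 fold change (2.32) with an SE of 0.25 in place of 0.62, for a reason that was not tested, so that its p-values and calls are to be read with doubt here and in what follows.

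*H2-Aa* was at 0, 3.91 and 36.6 normalized molecules in WT, at 15.6, 31.5 and 86.0 in *muMt*-/- and at 0.781, 24.3 and 70.5 in GABA-treated CD8+ T cells. Again 5 of 6 WT libraries stood under every *muMt*-/- library, while the GABA-treated group overlapped both. The log2 fold change for B cell loss was 2.07 ± 0.63 (edgeR adjusted p = 0.36), and 3.85 without WT replicate 5 (edgeR adjusted p = 0.0096; 7.1e-09 to 0.9997 over all alternatives). *H2-Ab1*, with medians of 2.33, 25.2 and 15.7, gave 2.02 ± 0.61 (edgeR adjusted p = 0.36), and 3.45 without that library (edgeR adjusted p = 0.0187; 4.9e-08 to 0.9997 over all alternatives). *H2-Eb1*, with medians of 1.13, 21.9 and 13.2, gave 1.83 ± 0.67 (edgeR adjusted p = 0.604), and 3.19 without that library (edgeR adjusted p = 0.0771), which held 24 of its 34 WT molecules.

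The DM genes and *Ciita* were near the limit of detection in CD8+ T cells. *H2-DMa* was at a median of 2.12, 2.75 and 5.90 normalized molecules, with a log2 fold change of 1.21 ± 0.62 for B cell loss (edgeR adjusted p = 0.831), and 0.50 without *muMt*-/- replicate 1, which held 16 of the 33 molecules of its group. *H2-DMb1* had 3 molecules in the WT group and 31 in the *muMt*-/- group, a ratio of pooled CPM of 6.73 (95% exact interval 2.10 to 34.4, counting error only). Single libraries weighed on both sides: 13 of the 31 came from *muMt*-/- replicate 1 and 2 of the 3 from WT replicate 5. Between mice its log2 fold change was 2.67 ± 0.88 and did not pass (edgeR adjusted p = 0.433), and it was 2.14 without *muMt*-/- replicate 1. *Ciita* had 1, 5 and 5 molecules in the 3 groups and did not reach the mean of 1 normalized molecule that was required for the test.

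**Figure D2:**
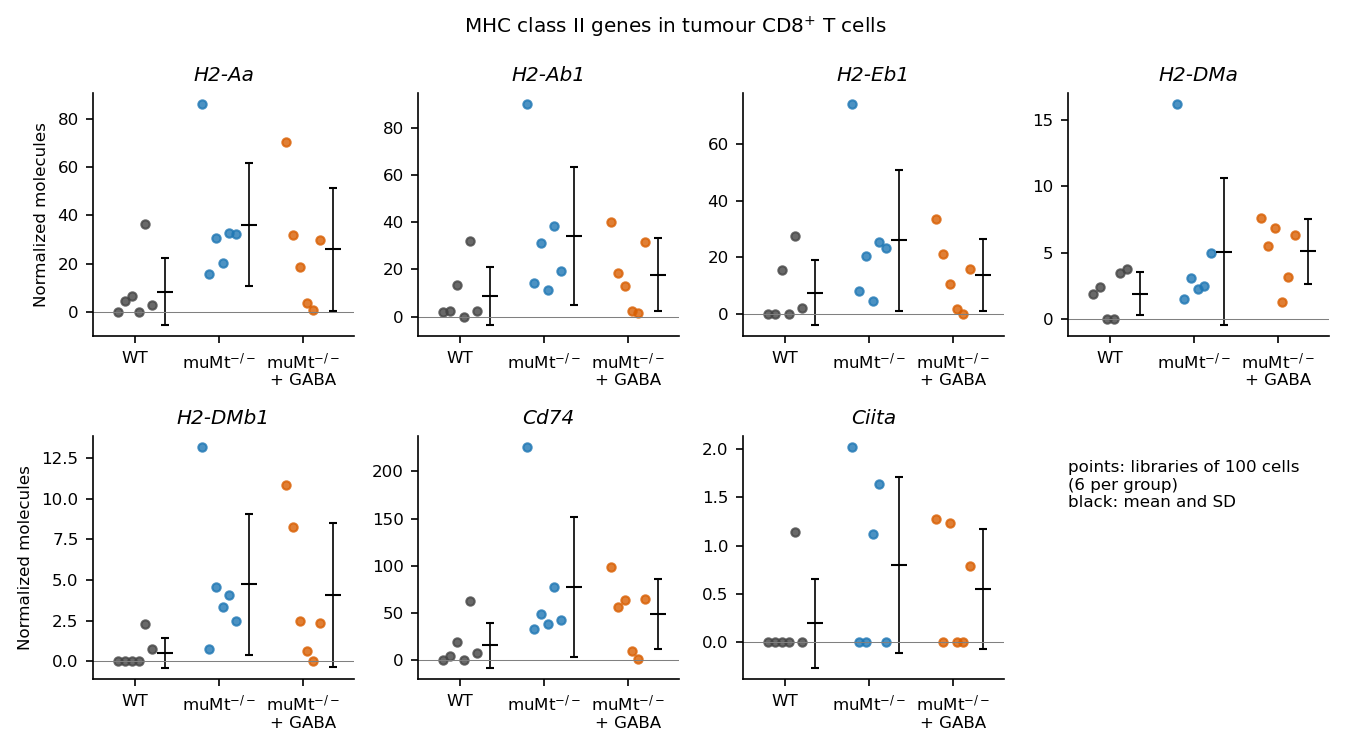
Normalized molecules of the 7 genes in CD8+ T cells. Each point is 1 library of 100 cells and black marks give the mean and SD of the 6 libraries. For *Cd74*, WT replicate 5 (62.9) and *muMt*-/- replicate 1 (225.5) stand above the others of their groups.

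For B cell loss in CD8+ T cells, 0 of the 6 genes tested passed edgeR, and 0% of the 6663 genes tested did. DESeq2 called 0 of 6 as well. At an unadjusted p under 0.05 it was 5 of 6, all higher in *muMt*-/- mice, where 6.17% of all genes were under it in either direction and 5.37% as higher. The median log2 fold change was 2.05 over the 6 genes and 0.15 over all genes tested. Leaving out WT replicate 5 gave 3 calls (*H2-Aa*, *H2-Ab1* and *Cd74*), beside 0.195% of all genes, and the fit with no filter gave 5, beside 0.549%. Without the 2 libraries in which macrophage markers outnumbered T cell markers it was 0 of 6, with log2 fold changes from 0.45 for *H2-DMa* to 2.09 for *H2-DMb1*. The all-gene median moved with the scaling, to 0.059 with DESeq2 size factors here and from 0.21 to 0.060 for GABA-treated against WT cells.

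*muMt*-/- CD8+ T cells with GABA against those without gave 0 of 6 calls in edgeR and DESeq2 and 0 of 6 at an unadjusted p under 0.05, beside 0% and 3.71% of all genes. The log2 fold changes ran from -0.85 ± 0.52 for *H2-Ab1* to 0.13 ± 0.47 for *H2-DMa*, with a median of -0.49 beside 0.033 over all genes. Single libraries turned the direction of 3 genes: without *muMt*-/- replicate 1, *Cd74* went from -0.56 to 0.037 and *H2-DMb1* from -0.12 to 0.41. *H2-DMb1* was also above 0 without GABA-treated replicate 4 or 5, and *H2-DMa* was below 0 without *muMt*-/- replicate 2, 3 or 4 or GABA-treated replicate 1 or 3 (lowest -0.12). GABA-treated against WT cells, a comparison that shares both of its groups with those above, gave 0 of 6 in edgeR, beside 0% of all genes. DESeq2 called 0 of 6 as well, and 1 of the 6663 genes tested. At an unadjusted p under 0.05 it was 4 of 6, all higher with GABA, beside 6.89% of all genes in either direction and 5.99% as higher. The median was 1.5 beside 0.21, and *Cd74* had a log2 fold change of 1.72 ± 0.62 (edgeR adjusted p = 0.511). With no filter, 4 genes were called, beside 0.488% of all genes. Without the 2 libraries named above it was 0 of 6, and the log2 fold changes ran from 0.42 for *H2-Eb1* to 1.88 for *H2-DMb1*. Without WT replicate 5 it was 0 of 6 as well, but with higher values, 3.45 for *H2-Aa* and 3.20 for *Cd74* (edgeR adjusted p = 0.054 for both).

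TAMs against CD8+ T cells gives the level of each gene in its usual cell type. In WT mice 7 of 7 genes passed edgeR as higher in TAMs, where 22.7% of the 8477 genes tested passed in either direction, 16.8% as higher in TAMs, and 32.6% had an unadjusted p under 0.05. The log2 fold change was 4.13 ± 0.54 for *H2-Aa* (edgeR adjusted p = 1.5e-08), 3.92 ± 0.52 for *H2-Ab1*, 3.73 ± 0.54 for *H2-Eb1*, 4.09 ± 0.53 for *Cd74* and 3.95 ± 0.50 for *H2-DMa*. Without WT CD8+ replicate 5 these were 5.93, 5.36, 5.11, 5.56 and 4.12, and 7 of 7 passed. *H2-DMb1* and *Ciita* rested on 3 and 1 molecules in WT CD8+ T cells, with pooled ratios of 40.3 (exact interval 13.7 to 196) and 12.4 (2.14 to 495), counting error only. WT CD8+ replicate 5 held 2 of the 3 *H2-DMb1* molecules and the 1 of *Ciita*. The median was 3.95 beside 0.36 over all genes, and the latter was 0.20 with DESeq2 size factors and 0.036 with total molecules.

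Whether B cell loss acted differently in the cell types was tested as the TAM response minus the CD8+ response. 0 of 7 genes passed edgeR, beside 0.0118% of all genes, and DESeq2 called 1, *H2-DMb1* (-2.81, DESeq2 adjusted p = 0.042; 0.0076 in edgeR with no filter), beside 0.448% of all genes. With no filter, 5 genes passed, beside 0.507%. At an unadjusted p under 0.05 it was 5 of 7, all lower, beside 10.1% of all genes in either direction and 8.32% as lower. The differences ran from -2.93 ± 0.88 for *H2-DMb1* (edgeR adjusted p = 0.217) to -1.30 ± 1.20 for *Ciita*, with a median of -1.88 beside -0.30 over all genes (-0.11 with DESeq2 size factors). Without the 2 CD8+ libraries named above 0 of 7 passed, and *H2-DMb1* stood at -2.38 (edgeR adjusted p = 0.293). The same test of the GABA response gave 0 of 7 in edgeR and DESeq2 and 0 of 7 at an unadjusted p under 0.05, beside 0% and 4.53%, with a median of 0.26 beside 0.0079.

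Markers of macrophages moved with these genes in CD8+ T cell libraries. The 12 macrophage markers summed to 0, 180 and 908 CPM in WT mice (lowest, median and highest), to 455, 775 and 3904 in *muMt*-/- mice and to 130, 1037 and 2468 in GABA-treated mice. In WT mice 10 of 12 were found, with *Cd14* the most abundant (19 molecules) and *Adgre1*, which encodes F4/80, and *Mertk* at 0. In the other groups 12 of 12 were found, led by *Cd14* (112 molecules) and *Itgam* (92). The mean sum was 4.85 times as high in *muMt*-/- as in WT mice (two-sided exact permutation p = 0.019, adjusted p = 0.164 over 42 comparisons) and 4.50 times with GABA (exact p = 0.041, adjusted p = 0.173). Single libraries moved these ratios: without *muMt*-/- replicate 1 the first was 2.92, and without WT replicate 5 they were 9.23 and 8.57. The libraries with the highest sums in the WT and *muMt*-/- groups were WT replicate 5 and *muMt*-/- replicate 1, and the lowest GABA-treated ones were replicates 4 and 5 (211 and 130). The part of these markers in the levels of the gene group was not tested. As a share of the TAM level, the 7 genes stood at a median of 7.01% in WT, 25.1% in *muMt*-/- and 16.9% in GABA-treated CD8+ T cells, and the 12 macrophage markers at 1.78%, 10.4% and 12.5%. These shares divide group means, on which single libraries weighed. For *Cd74* in CD8+ T cells the WT mean of 273 CPM stood beside a median of 109, with replicate 5 at 1063. The *muMt*-/- mean of 1290 CPM stood beside a median of 810, with replicate 1 at 3511.

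Over all 18 CD8+ T cell libraries, *Cd74* was higher where the summed macrophage markers were higher, both on a log2 scale. Pearson's r was 0.86 and Spearman's rho 0.97; each had a permutation p of 1e-05, the lowest value reachable with 100000 permutations, and adjusted p over 70 relations was 0.00014 and 0.00035. Within groups r was 0.80 (permutation test, adjusted p = 0.0021). Without the 2 libraries farthest from the median of the markers r was 0.82 over all and 0.76 within groups. For *H2-Ab1* r was 0.94 and rho 0.85, and within groups r was 0.94. Over the 7 genes r ran from 0.58 for *Ciita* to 0.94 for *H2-Ab1*, with an adjusted permutation p under 0.05 for 7 of 7 and, within groups, for 4 of 7. In TAMs, r of *Cd74* with the same markers was 0.31 and rho 0.065 (permutation p = 0.216 and 0.798, adjusted p = 0.433 and 0.833), while within groups r was 0.64 (permutation p = 0.0182, adjusted p = 0.0909), and without the 2 farthest libraries r was -0.0056 over all and 0.43 within groups. Over the 7 genes in TAMs r within groups ran from 0.39 for *Ciita* to 0.88 for *H2-DMa*, with an adjusted permutation p under 0.05 for 1 of 7, *H2-DMa*. Whether the relations differed between the cell types was not tested. *H2-DMa* gave r = 0.75 and rho = 0.55 in TAMs (permutation p = 0.0011 and 0.0193, adjusted p = 0.0096 and 0.105), and 0.88 within groups (adjusted permutation p = 0.0036). Without the 2 farthest libraries these were 0.37 over all and 0.68 within groups, so that r over all libraries depended in part on those 2. No test was run without them. *H2-DMb1* gave 0.76 and 0.55 (permutation p = 0.00076 and 0.0195, adjusted p = 0.0084 and 0.105) and 0.76 within groups (adjusted permutation p = 0.0625), and without them 0.47 and 0.42. The part of the markers in the TAM levels was not tested.

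**Figure D3:**
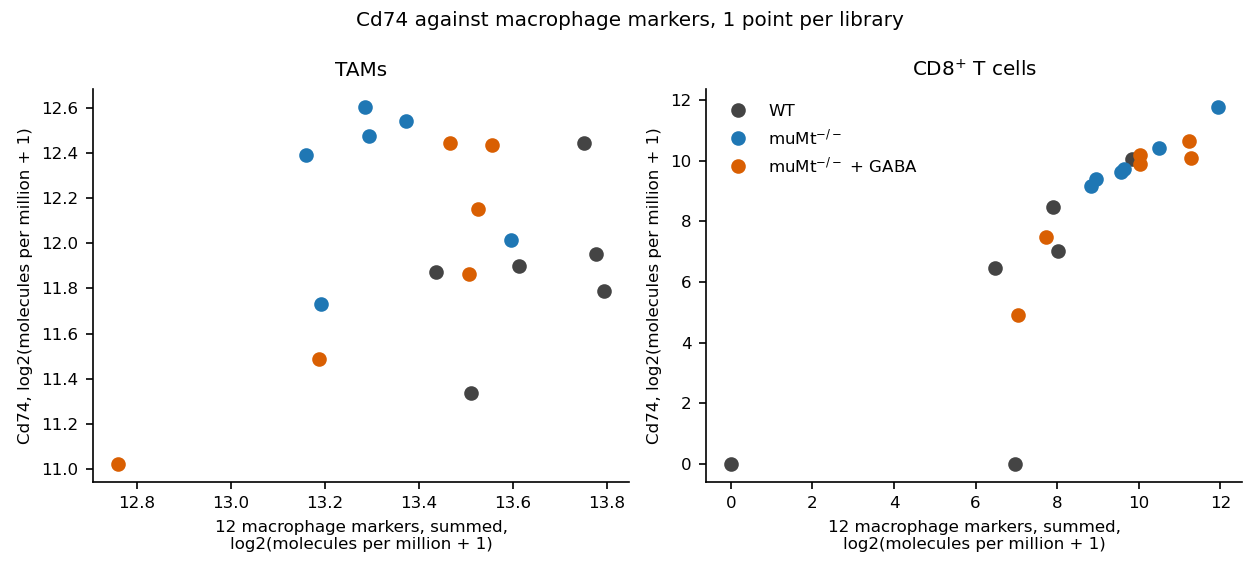
*Cd74* against the sum of 12 macrophage markers, both as log2(CPM + 1), 1 point per library. In CD8+ T cells r is 0.86 over all libraries and 0.80 within groups, and in TAMs it is 0.31 and 0.64.

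Markers of other cells that carry or lack MHC class II were summed in the same way. B cell markers, 10 genes, were at 0, 0 and 39.6 CPM in WT CD8+ T cells (lowest, median and highest), at 0, 6.49 and 19.6 in *muMt*-/- and at 0, 5.25 and 43.5 in GABA-treated ones, with 2 of 10 found in each group, and the most abundant had 1, 2 and 5 molecules (*Fcer2a*, *Fcrla* and *Cd79b*). In TAMs they ran from 3.29 to 34.3 CPM, with medians of 15.2, 13.7 and 10.9. There 5, 4 and 5 of 10 were found, led by *Ebf1* in WT and *muMt*-/- mice (7 and 5 molecules) and by *Cd79b* with GABA (9 molecules). *Cd79a*, *Pax5* and *Blk*, which mark B cells, were at 0 in every group. The 10 dendritic cell markers were at 216, 432 and 554 CPM in WT, 154, 397 and 724 in *muMt*-/- and 245, 340 and 420 in GABA-treated CD8+ T cells, led by *Ccr7*, which T cells also express, with *Clec9a* and *Cd209a* at 0. In TAMs their medians were 51.4, 45.7 and 94.4 (25.9 to 129), led by *Fscn1*, with *Cd209a* at 0. The GABA-treated TAM mean was 1.59 times that of WT (two-sided exact permutation p = 0.041, adjusted p = 0.173). It was 1.58 times that of *muMt*-/- (exact permutation p = 0.091, adjusted p = 0.255). The part of these markers in the TAM levels of the gene group was not tested. T cell markers, led by *Thy1*, had medians of 4895, 4062 and 4109 in CD8+ T cells (1842 to 6787), with 10 of 10 found. In TAMs their medians were 31.0, 9.93 and 9.88 (0 to 51.4). The T cell markers stood above the macrophage markers in all CD8+ libraries except *muMt*-/- replicate 1 (1842 against 3904 CPM) and GABA-treated replicate 1 (2285 against 2398).

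In TAMs the summed macrophage markers, 12 of 12 found and led by *Apoe*, were at 11086, 13163 and 14216 CPM in WT, 9156, 10020 and 12389 in *muMt*-/- and 6934, 11485 and 12036 in GABA-treated mice. The *muMt*-/- mean was 0.796 of WT (two-sided exact permutation p = 0.0087, adjusted p = 0.121) and the GABA-treated mean 0.815 (exact permutation p = 0.035, adjusted p = 0.173). The 6 monocyte markers, 6 of 6 found and led by *Ccr2*, were at 1516, 1643 and 1970 CPM in WT, 1431, 3174 and 3293 in *muMt*-/- and 1779, 2193 and 2437 in GABA-treated mice, with a *muMt*-/- mean 1.64 times that of WT (exact permutation p = 0.017, adjusted p = 0.164) and a GABA-treated mean 1.29 times that of WT (exact permutation p = 0.0065, adjusted p = 0.121). In *muMt*-/- mice 5 of 6 libraries stood above every WT library. *Cd74* was higher where they were higher over the 18 TAM libraries (r = 0.62 and rho = 0.63, permutation p = 0.0064 and 0.0069, adjusted p = 0.041 and 0.060), with r at 0.56 within groups (adjusted permutation p = 0.054) and at 0.55 without the 2 farthest. For the other genes of the group r with the monocyte markers was lower, from 0.040 for *H2-DMb1* to 0.49 for *H2-Eb1*. None of these r had an adjusted permutation p under 0.05 (lowest 0.175, for *H2-Eb1*). *Cd74* thus does not stand for the gene group here. The part of the monocyte markers in the level of *Cd74* was not tested. In CD8+ T cells the monocyte markers, led by *Ly6c2*, which activated T cells also carry, had medians of 1387, 2105 and 2052 CPM (975 to 2724). Tumour and stroma markers, led by *Col3a1*, had medians of 342, 353 and 507 CPM in TAMs (64.3 to 3419) and of 127, 494 and 157 in CD8+ T cells (15.4 to 1079), with *Krt18*, *Krt19* and *Cldn4* at 0 in every group.

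The other genes of the pathway were taken by lists. The 7 endosomal processing genes, proteases such as *Ctss*, which trims the invariant chain, and the thiol reductase *Ifi30*, passed in 7 of 7 as higher in TAMs than in CD8+ T cells of WT mice, where 16.8% of all genes did (*Ctss* 3.88 ± 0.38, *Ctsz* 3.65 ± 0.38, *Ifi30* 3.41 ± 0.46, *Ctsb* 3.04 ± 0.27 and *Ctsd* 1.29 ± 0.27 on the log2 scale, with *Ctsl* the other). *Lgmn*, an asparaginyl endopeptidase, had 2 molecules in WT CD8+ T cells, a pooled ratio of 116 (exact interval 32.0 to 958, counting error only). In CD8+ T cells 5 of 7 had an unadjusted p under 0.05 with B cell loss, all higher, beside 6.17% of all genes in either direction and 5.37% as higher, but the lowest adjusted p of the list, that of *Ctss* at 1.36 ± 0.41, was 0.36 in edgeR. GABA-treated against WT cells gave 6 of 7, all higher, beside 6.89% in either direction and 5.99% as higher (lowest edgeR adjusted p 0.458). The summed macrophage markers were also higher with B cell loss (mean 4.85 times that of WT), and their part was not tested. For B cell loss in TAMs 1 of 7 had an unadjusted p under 0.05, beside 14.9% of all genes: *Ifi30* at 0.31 ± 0.13 (edgeR adjusted p = 0.262).

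Of the interferon-γ route to *Ciita*, genes that passed as higher in WT TAMs included *Ifngr2* (2.77 ± 0.52) and *Irf1* (0.78 ± 0.25), while *Ifngr1* (-1.94 ± 0.23) and *Jak1* (-0.88 ± 0.23) passed as lower, in a comparison where 22.7% of all genes passed in either direction. For B cell loss in TAMs 2 of 7 had an unadjusted p under 0.05, beside 14.9% of all genes, and neither passed: *Jak2* at 0.75 ± 0.24 (edgeR adjusted p = 0.0855) and *Ifngr1*, the ligand-binding receptor chain, at 0.52 ± 0.18 (edgeR adjusted p = 0.122). *Irf1* stood at -0.23 ± 0.17. With the GABA pellet in *muMt*-/- TAMs 1 of 7 had an unadjusted p under 0.05, beside 8.46% of all genes. It was *Ifngr1* at -0.57 ± 0.18 (edgeR adjusted p = 0.298), in a comparison that shares the *muMt*-/- libraries. Of the factors that bind MHC class II promoters, 1 of 6 tested passed between the cell types in WT mice, *Nfya* (1.27 ± 0.46, edgeR adjusted p = 0.035), which is near the 22.7% of all genes. For B cell loss in TAMs the lowest adjusted p of that list was 0.378 in edgeR, and *Creb1* and *Nfyb* stood at -0.11 ± 0.24 and -0.19 ± 0.35. *Cd86*, a costimulatory ligand, was 2.70 ± 0.55 higher in WT TAMs, and *Cd40* had a median of 10.9 normalized molecules there and 0 molecules in WT CD8+ T cells. *Cd80* had a median of 1.35 in WT TAMs. Of the 5 other genes of the locus, 0 had enough molecules for the test. *H2-Oa* and *H2-Ob*, the chains of the DO molecule that restrains DM, had medians of 0 and 0.363 normalized molecules in WT TAMs. *H2-DMb2* and *H2-Eb2* had 1 molecule each in WT TAMs and 0 elsewhere, and *H2-Ea-ps* had 0 of 4818301 molecules, which allows up to 0.623 CPM.

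By likeness to the summed gene group within groups (Pearson's r over 18 libraries, 5303 genes compared in TAMs), the closest in TAMs were *Pla2g7* (0.93), *Ubb* (0.91), *Ctss* (0.90), *Lipa* (0.89), *Blvrb* (0.89), *Ifitm3* (0.89), *Clec4d* (0.89), *Fth1* (0.88), *AW112010* (0.88) and the MHC class I gene *H2-K1* (0.88). In CD8+ T cells, among 1879 genes, they were *Tgm2* (0.95), *Psap* (0.91), *Mpeg1* (0.90), *Tgfbi* (0.90), *Fcgr3* (0.89), *Fcer1g* (0.88), *Ifi30* (0.86), *Clec7a* (0.85), *Ccr1* (0.84) and *Il1b* (0.83). The leading genes were picked from many, so these values are a description.

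Because the genes varied together from mouse to mouse, the 250 bases before the start of *H2-Aa* (chr17:34287824-34288073, minus strand), *H2-Eb1* (chr17:34305617-34305866, plus strand) and *H2-DMb1* (chr17:34152941-34153190, plus strand) of GRCm38.p6 are given 5′ to 3′ from RefSeq. They are 3 of the 4 genes of the group that matched an entry, *H2-DMa* being the other, and *H2-Ab1*, *Cd74* and *Ciita* were not matched. Capitals mark TGATTGG, the letters of the Y box, and GCAAC, letters found in the X box, searched on both strands.
H2-Aa: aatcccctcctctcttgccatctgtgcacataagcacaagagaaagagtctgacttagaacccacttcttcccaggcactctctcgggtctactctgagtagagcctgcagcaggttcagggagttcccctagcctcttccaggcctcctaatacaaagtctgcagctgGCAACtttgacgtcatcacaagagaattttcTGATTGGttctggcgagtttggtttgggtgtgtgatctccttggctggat
H2-Eb1: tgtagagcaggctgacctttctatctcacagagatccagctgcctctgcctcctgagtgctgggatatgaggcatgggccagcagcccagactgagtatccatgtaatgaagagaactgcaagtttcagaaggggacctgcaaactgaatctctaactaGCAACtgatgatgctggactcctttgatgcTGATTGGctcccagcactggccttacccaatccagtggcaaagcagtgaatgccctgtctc
H2-DMb1: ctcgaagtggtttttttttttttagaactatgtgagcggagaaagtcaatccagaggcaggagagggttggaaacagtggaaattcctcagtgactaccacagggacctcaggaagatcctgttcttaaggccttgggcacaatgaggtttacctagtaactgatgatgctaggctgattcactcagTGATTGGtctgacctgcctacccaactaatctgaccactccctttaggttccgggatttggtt
Of the 5 entries of the 4 matched genes, the 3 shown held TGATTGG and the 2 of *H2-DMa* did not, while 7.23% of 32851 promoter entries of this length hold it. Among neighbours of the locus outside the gene group, *H2-Oa*, *H2-Ob*, *H2-Eb2* and *H2-DMb2*, all at few or 0 molecules in TAMs, held TGATTGG too. *H2-Aa* and *H2-Eb1* held GCAAC as well, as 29.9% of entries do, at 26 and 25 bases before TGATTGG. The *H2-DMa* entry at chr17:34122582-34122831 held GCAAC too, on the opposite strand and without TGATTGG. The order of GCAAC and, after 20 to 35 bases, TGATTGG was found in 0.122% of entries, and also in *H2-Oa*, *H2-Ob* and *H2-Eb2*; that spacing was set after these promoters had been read, so the share is a description. No match says only that these letters are not in this window, and a match is not a site.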

How the data were processed

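The authors mapped the reads with STAR to mm10 and deposited, per gene and library, the count of distinct molecules, without normalization. All 36 libraries were used, and 0 columns were left without a sample. The table has 26 gene names turned into dates, so that *March1* and *March8* were not matched. The members and gene lists were chosen with earlier results of these data known. Genes with a mean above 1 DESeq2-normalized molecule were tested in edgeR 4.0.16 (quasi-likelihood F-test, TMM, 1 coefficient per group, Benjamini-Hochberg adjustment, threshold 0.05), with DESeq2 1.42.0 in R 4.3.3 as an alternative; SE is the log2 fold change over the root of F. Named were the 7 members, listed genes with an adjusted p under 0.05, the 3 highest of each list, the 10 most like genes, and the leading and undetected markers, except for items that are not reported here. Marker sums and depth were compared by two-sided exact permutation tests (smallest p 0.0022), adjusted over 42 comparisons, and relations over 70. Alternatives were DESeq2 size factors, total molecules, the DESeq2 Wald test, edgeR's filterByExpr, no filter, replicate blocks, the 12 libraries compared, and each library, those with much *Col1a1*, or 2 CD8+ libraries with more macrophage than T cell marker molecules left out. Further versions were matplotlib 3.10.9, scipy 1.17.1, Python 3.11.15, pandas 2.3.3 and numpy 2.4.6. The statistics were tested on simulated data. *Ighm* was not analysed here, so the genotype was not checked on it.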

Additional observations from a re-analysis of the deposited data

Results flagged for a closer look

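In CD8+ T cells, single libraries stood far from the others of their group. WT replicate 5 was high for *H2-Aa* (36.6 normalized molecules), *H2-DMb1* (2.29), *Cd74* (62.9) and *Ciita* (1.14, its group's 1 molecule). *muMt*-/- replicate 1 was high for *H2-Aa* (86.0), *H2-Ab1* (90.0), *H2-Eb1* (73.8), *H2-DMa* (16.2), *H2-DMb1* (13.1) and *Cd74* (225.5). These are 10 of 42 groups of 6 values. Chance gives about 1 in 20 for values that vary smoothly, a rate that does not hold for *Ciita* (1 molecule beside 5 libraries at 0) or for *H2-DMb1* in WT mice (2 molecules), and the genes share their libraries, so the values are not independent. The same libraries had the highest macrophage marker sums of their groups (908 and 3904 CPM), whose part was not tested. No TAM library stood apart in this way.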

How the results depend on the processing

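Among the 7 genes, calls stayed at 0 in all alternatives run for the 3 TAM comparisons, for GABA in *muMt*-/- CD8+ T cells and for the GABA response between cell types. TAMs against CD8+ T cells gave 7, or 6 of 6 tested with filterByExpr. With no filter, 5 genes passed for B cell loss in CD8+ T cells, 4 for GABA-treated against WT CD8+ T cells and 5 for B cell loss between cell types, where DESeq2 gave 1. Leaving out single libraries gave 0 to 3 for B cell loss in CD8+ T cells, the 3 without WT replicate 5, and leaving out the 2 CD8+ libraries with more macrophage than T cell markers (chosen after seeing the data) gave 0 in each comparison run. The cause was not tested.

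The number of genes tested changed with the filter, so that the counts below are not shares. In TAMs 9469 genes were tested, 3853 with filterByExpr and 14986 with no filter. In CD8+ T cells these were 6663, 1266 and 13109, and over both cell types 8477, 2614 and 15593. Over all genes, B cell loss in TAMs gave 194 calls, but 295 with filterByExpr, 343 with no filter, 323 in the 12 libraries compared, 93 without the 3 libraries over 100 *Col1a1* molecules (chosen after seeing the data), and 67 to 231 leaving out single libraries (87 without WT replicate 1, 125 without WT replicate 6, 67 without *muMt*-/- replicate 4). GABA in *muMt*-/- TAMs gave 2, but 7 with total molecules, 62 with DESeq2, 51 with no filter, 4 with the replicate block, 5 without the *Col1a1* libraries and 2 to 36 leaving out single libraries (36 without GABA-treated replicate 1, 12 without *muMt*-/- replicate 5). GABA-treated against WT TAMs gave 7, but 13 with DESeq2, 2 with filterByExpr, 63 with no filter, 4 in the 12 libraries, 2 without the *Col1a1* libraries and 2 to 9 leaving out single libraries. In CD8+ T cells, B cell loss gave 0, but 72 with no filter, 1 in the 12 libraries and 0 to 13 leaving out single libraries (13 without WT replicate 5). GABA in *muMt*-/- CD8+ T cells gave 0, but 11 with no filter, 2 with the replicate block and 0 to 1 leaving out single libraries. GABA-treated against WT CD8+ T cells gave 0, but 64 with no filter, 1 with DESeq2 size factors, total molecules, DESeq2, the replicate block or the 12 libraries, 2 without those 2 libraries, and 0 to 1 leaving out single libraries. TAMs against CD8+ T cells gave 1928 of the 8477 genes tested, but 1166 of 2614 with filterByExpr. B cell loss between cell types gave 1, but 38 with DESeq2, 79 with no filter, 4 without those 2 libraries and 0 with DESeq2 size factors, total molecules or filterByExpr. The GABA response between cell types gave 0, but 17 with no filter and 3 without those 2 libraries. The cause was not tested.

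Some log2 fold changes turned sign, and none of these had passed the test. For GABA in *muMt*-/- TAMs, *H2-Aa* was at 0.025 with total molecules and 0.089 without the *Col1a1* libraries, and *H2-DMb1* at 0.0062 and 0.040. For GABA-treated against WT TAMs, *H2-Ab1* was at -0.015 with no filter, -0.045 with the replicate block and -0.010 in the 12 libraries. For the GABA response between cell types, *H2-DMa* was at 0.073 with total molecules and *Cd74* at -0.12 without those 2 libraries. Leaving out single libraries, signs turned for B cell loss in TAMs (*H2-DMa* -0.17 to 0.048); GABA in *muMt*-/- TAMs (*H2-Aa* -0.17 to 0.17, *H2-Ab1* -0.30 to 0.011, *H2-DMa* -0.044 to 0.33, *H2-DMb1* -0.11 to 0.096, *Ciita* -0.054 to 0.21); GABA-treated against WT TAMs (*H2-Aa* -0.013 to 0.32, *H2-Ab1* -0.13 to 0.18, *H2-Eb1* -0.0068 to 0.29, *H2-DMa* -0.10 to 0.26, *Cd74* -0.040 to 0.22); GABA in *muMt*-/- CD8+ T cells (*H2-DMa* -0.12 to 0.83, *H2-DMb1* -0.78 to 0.41, *Cd74* -0.93 to 0.037).

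Replicate numbers did not pair the libraries by the requirement that every pair's correlation exceed 0.1: 2 of 18 same-numbered pairs between TAM groups, 5 of 18 between TAMs and CD8+ T cells of a group, and 6 of 18 between CD8+ groups did, and the best match had the same number in 6 of 36, 6 of 18 and 7 of 36 cases. Each best match was sought among 6 libraries. Missing a requirement set on every pair does not show that same-numbered libraries were unrelated. With the replicate block the 3 TAM comparisons gave 201, 4 and 6 calls over all genes and 0 among the 7. With a block of same-numbered TAM and CD8+ libraries, added after seeing the data, TAMs against CD8+ T cells gave 1850 and 7, B cell loss between cell types 12 and 0, and the GABA response between cell types 1 and 0. CD8+ T cell libraries, of 22896 to 98015 molecules, limit what can be detected.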
